A study of Homo sapiens with 6 samples.

Results

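GRIK4, TENM2, CDH8, NTN4, MBP, CACNA1H, PTGER3 and GPNMB are 8 genes of cell adhesion, guidance and signalling, of 23459 Entrez genes in the count table and 13124 that could be tested. They were chosen by hand as neural-type genes with large differences between the groups, a name that suits some of them (GRIK4, TENM2, CDH8, MBP) better than others with wide roles outside nerve tissue (NTN4, PTGER3, GPNMB), and each row was found by its Entrez ID. The values that chose them are the same 3 contrasts described here, so their levels and differences stand as a description, and no test of them is read as a result. The RNA came from T47D-YA, a line derived from luminal T47D breast cancer cells that carries the progesterone receptor as its A form. The 3 groups had 2 libraries each and differed in what the cells overexpressed: nothing beyond an empty vector (MOCK), fibroblast growth factor 2 (FGF2) as its 18 kDa isoform, or FGF2 as its 22.5 kDa isoform. All 3 groups share the T47D-YA background, and the labels do not say whether a line is 1 clone or a pool, nor which promoter drives FGF2. The mRNA was sequenced in pairs of reads with a directional library kit.

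Teneurins, cadherins and netrins are surface or secreted proteins by which growing nerve cells recognise partners, adhere and steer their processes. Glutamate receptors and voltage-gated calcium channels carry the electrical and calcium signals that pass between such cells. FGF2 is a growth factor whose short form is exported to act on receptors at the cell surface, while its longer forms, which start at upstream codons, go mainly to the nucleus.

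FGF2 had 12 and 13 counts with the empty vector. It had 6259 and 4365 with the 18 kDa isoform, and 8731 and 7758 with the 22.5 kDa isoform. The isoform libraries thus stood apart from the empty vector as labelled. Counts per gene cannot tell the 2 isoforms apart, so their labels were not checked against each other. Total counts ran from 5317687 to 6817324 per library. Levels are TMM-scaled CPM (counts relative to library size), given as mean ± SD over the 2 libraries of a group. For FGF2 itself they were 864 ± 137 with 18 kDa and 1444 ± 157 with 22.5 kDa, with no overlap. Its log2 fold change between the isoforms was 0.74 (SE 0.23, edgeR adjusted p = 0.119). The part of the amount of FGF2 RNA in differences between the isoform lines was not tested. Where a group had no count, the fold is at least the ratio to a floor of 3 counts in each library. A group total of 1 to 3 counts gives a count ratio with its 95% interval (exact binomial). Floors and intervals cover counting error only. In bulk RNA, fewer cells that express a gene and less RNA per cell cannot be told apart.

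RefSeq (GRCh38.p14) gave 11 promoter windows for 6 of the 8 genes, each 250 bases before to 50 after an annotated start. Sequences of PTGER3 and CACNA1H are not shown here. The 250 bases before the first start are printed for the pair that was higher with both isoforms (GRIK4 and NTN4) and the pair that stepped down from 18 kDa to 22.5 kDa (TENM2 and CDH8), since the members of each pair are set beside each other. Capitals mark CG dinucleotides, and each sequence reads 5′ to 3′ on the strand of the gene. The coordinates belong to GRCh38.p14, while the submitters' processing notes name hg19 for the counts.
GRIK4, chr11:120511498-120511747, plus strand: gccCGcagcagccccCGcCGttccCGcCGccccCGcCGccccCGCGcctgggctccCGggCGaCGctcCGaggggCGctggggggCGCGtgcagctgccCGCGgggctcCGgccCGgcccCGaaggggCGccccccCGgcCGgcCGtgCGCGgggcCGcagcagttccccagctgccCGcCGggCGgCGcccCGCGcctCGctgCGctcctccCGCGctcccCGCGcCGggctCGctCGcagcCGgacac
NTN4, chr12:95791156-95791405, minus strand: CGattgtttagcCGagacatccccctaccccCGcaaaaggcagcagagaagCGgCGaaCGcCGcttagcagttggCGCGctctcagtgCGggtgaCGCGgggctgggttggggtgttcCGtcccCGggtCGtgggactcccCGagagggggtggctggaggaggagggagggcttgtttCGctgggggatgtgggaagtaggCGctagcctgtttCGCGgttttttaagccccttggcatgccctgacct
TENM2, chr5:167072992-167073241, plus strand: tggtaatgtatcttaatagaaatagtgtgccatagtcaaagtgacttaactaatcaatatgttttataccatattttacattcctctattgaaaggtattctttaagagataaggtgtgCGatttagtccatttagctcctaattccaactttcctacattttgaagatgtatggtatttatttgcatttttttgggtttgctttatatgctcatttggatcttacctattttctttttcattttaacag
CDH8, chr16:62036439-62036688, minus strand: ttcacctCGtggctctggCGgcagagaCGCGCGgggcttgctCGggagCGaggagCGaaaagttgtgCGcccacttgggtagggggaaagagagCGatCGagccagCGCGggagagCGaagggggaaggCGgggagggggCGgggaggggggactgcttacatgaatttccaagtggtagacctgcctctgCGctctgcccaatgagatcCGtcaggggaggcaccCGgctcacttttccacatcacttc
The GRIK4 window held 49 CG dinucleotides and its NTN4 partner 21, against a median of 14 over 35116 windows of all RefSeq genes. The TENM2 window held 3 and the CDH8 window 24. At the second annotated start the counts were 29 for GRIK4, 40 for NTN4, 4 for TENM2 and 19 for CDH8. GRIK4 and NTN4 thus lay above the median at both starts, while TENM2 lay below it and CDH8 above it at both. Over the 11 windows the CG counts ran from 3 to 49.

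GPNMB is printed because its window was the only one of the 11 to match any of 4 motifs searched on both strands: an estrogen response element (GGTCANNNTGACC, in 0.057% of all windows), an AP-1 site (TGANTCA, in 7.71%), an E-box (CACGTG, in 7.26%) and an M-box (TCATGTGA, in 1.00%). The M-box, known as a site of MITF in pigment cell genes, was added to the search after this window had been seen. Capitals here mark the AP-1 match, which begins at position -134 from the start, and the M-box match at -63, which lies on the other strand. No 2 of the 4 motifs overlap in this window. A match of letters is a description and shows no binding.
GPNMB, chr7:23246525-23246774, plus strand: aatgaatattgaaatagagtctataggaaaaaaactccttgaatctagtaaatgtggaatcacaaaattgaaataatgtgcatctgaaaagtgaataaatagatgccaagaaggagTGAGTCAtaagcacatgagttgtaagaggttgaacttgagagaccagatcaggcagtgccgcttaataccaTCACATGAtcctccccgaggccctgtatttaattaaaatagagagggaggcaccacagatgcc

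All 8 genes passed the filter on low counts. In the fit across all genes, all 8 passed with 18 kDa FGF2 at an edgeR adjusted p under 0.05, 2 higher and 6 lower, where 8.88% of all tested genes did (4.09% higher, 4.79% lower). With 22.5 kDa FGF2, 6 passed (not MBP and PTGER3), 3 higher and 3 lower, where 10.9% of all tested genes did (5.02% higher, 5.88% lower). Between the isoforms 5 passed, 3 higher and 2 lower with 22.5 kDa, where 1.58% of all tested genes did (1.13% higher, 0.45% lower). These counts follow from how the genes were chosen, and nothing is read from them. The median log2 fold change of the 8 genes was -2.08, -1.05 and 0.12 in these comparisons, and that of all tested genes was -0.05, 0.01 and 0.02. Both isoform comparisons use the same 2 empty vector libraries.

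**Figure D1:**
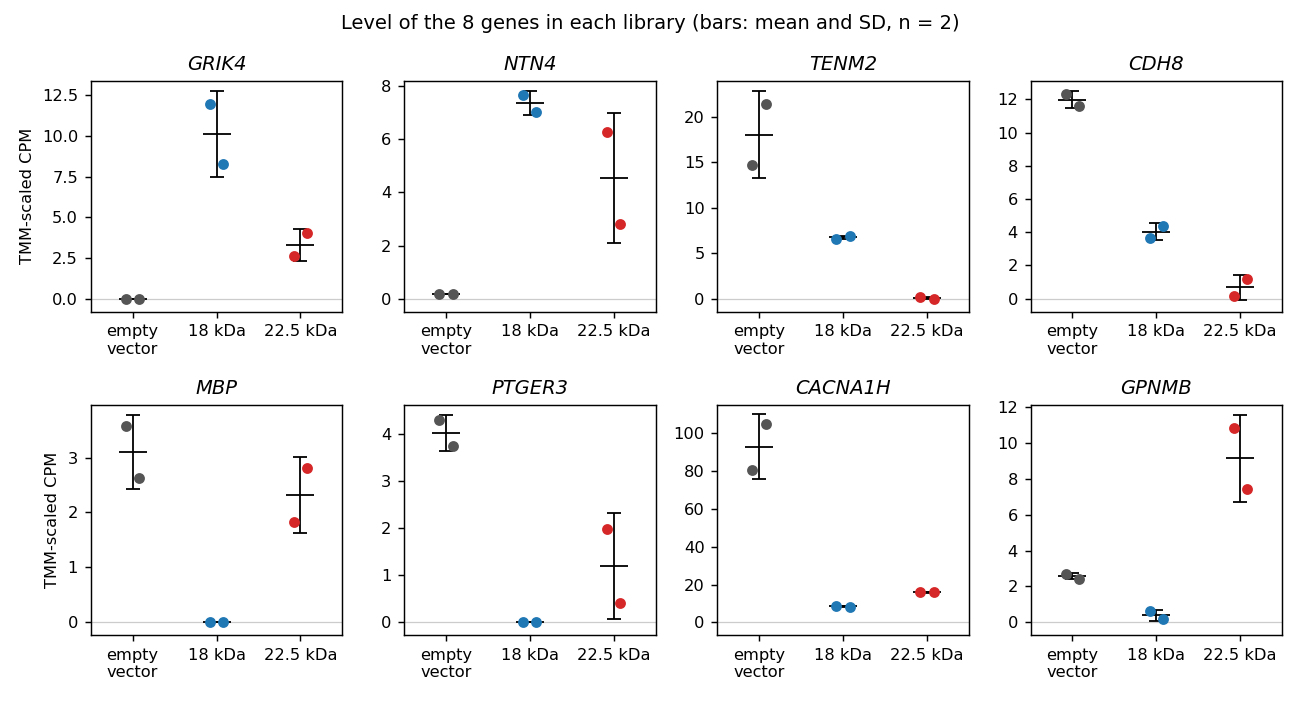
TMM-scaled CPM of the 8 genes in each of the 6 libraries: points are libraries, horizontal bars group means and whiskers the SD (n = 2), with a separate linear axis for each gene. GRIK4 and NTN4 are high in both isoform lines, TENM2 and CDH8 step down to 22.5 kDa, MBP and PTGER3 are at 0 with 18 kDa alone, and GPNMB lies on either side of the empty vector.

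TENM2 (Entrez 57451, chromosome 5) encodes teneurin-2, a large membrane protein that binds latrophilins across the junction between cells. Its counts were 82 and 114 with the empty vector, 43 and 39 with 18 kDa FGF2, and 1 and 0 with 22.5 kDa FGF2. The level went from 18.0 ± 4.76 CPM to 6.73 ± 0.178 and 0.0764 ± 0.108 CPM, in 3 steps with no overlap between groups. Against the empty vector the log2 fold change was -1.42 (SE 0.39) with 18 kDa FGF2. With 22.5 kDa FGF2 the single count left TENM2 207-fold lower than the empty vector (interval 36.7 to 8218), and 77.5-fold lower than with 18 kDa (13.5 to 3098).

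CDH8 (Entrez 1006, chromosome 16), a type II classical cadherin of synaptic contacts, went down in the same order. Its counts were 69 and 62 with the empty vector, 24 and 25 with 18 kDa FGF2, and 1 and 6 with 22.5 kDa FGF2. The levels were 12.0 ± 0.498, 4.04 ± 0.501 and 0.678 ± 0.742 CPM, and no group overlapped another. The log2 fold change was -1.57 (SE 0.45) with 18 kDa, -4.22 (SE 0.67) with 22.5 kDa and -2.66 (SE 0.69) between the isoforms. The 2 libraries with 22.5 kDa FGF2 differ: leaving out the first gives -3.30 against the empty vector, and leaving out the second gives -6.10, while the difference between the isoforms becomes -1.75 or -4.56. TENM2 and CDH8 thus share the direction and the order of the groups, but their log2 CPM profiles differed by a root mean square of 1.04 over the 6 libraries, and TENM2 ranked 163 among the tested genes by closeness to CDH8.

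Among the other teneurins, latrophilins and their FLRT partners, 4 of 10 could be tested. With 18 kDa FGF2 none of them rose and 2 fell, and with 22.5 kDa none rose and 3 fell. TENM3, a second teneurin, had 27 and 21 counts with the empty vector, 1 and 0 with 18 kDa and 1 and 0 with 22.5 kDa. It was 53.6-fold lower (interval 9.18 to 2163, edgeR adjusted p = 8.4e-05) with 18 kDa and 50.7-fold lower (8.68 to 2044, adjusted p = 9.3e-05) with 22.5 kDa. ADGRL2, a latrophilin and so a receptor for teneurins, had 23 and 17, 1 and 2, and 1 and 1 counts. It fell 14.9-fold (4.75 to 75.3, adjusted p = 0.000591) and 21.1-fold (5.48 to 180, adjusted p = 0.00031). TENM2 differed from both in keeping 43 and 39 counts with 18 kDa FGF2. ADGRL1, another latrophilin, fell by 0.77 on the log2 scale with 22.5 kDa (SE 0.22, adjusted p = 0.0197), a call lost without any 1 of the 4 libraries compared (highest adjusted p 0.205). TENM3 and ADGRL2 passed the count filter through the empty vector libraries alone.

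Of the other classical cadherins and catenins, 10 of 23 could be tested. With 18 kDa FGF2, 2 rose and 1 fell, and with 22.5 kDa 1 rose and 2 fell. CDH12, another type II cadherin, had 22 and 13 counts with the empty vector, through which alone it passed the count filter, and none in any library of either isoform. Its fall was at least 6.45-fold with 18 kDa (edgeR adjusted p = 0.000193) and at least 6.02-fold with 22.5 kDa (adjusted p = 0.000205). CDH3, the P-cadherin of epithelia, rose instead, from 50.2 ± 3.26 CPM to 156 ± 49.2 (log2 fold change 1.63, SE 0.23, adjusted p = 3.3e-05) and 128 ± 8.10 CPM (1.35, SE 0.23, adjusted p = 0.000257). CTNND2, a neuronal delta-catenin, rose by 1.17 on the log2 scale with 18 kDa (SE 0.22, adjusted p = 0.00078), a call lost without the second empty vector library (adjusted p = 0.055; 7.1e-07 to 0.055 over the alternatives). CDH24 fell by 0.89 with 22.5 kDa (SE 0.29, adjusted p = 0.0481) and was not called in 6 of 14 alternatives (highest adjusted p 0.294), among them each that left out a compared library. CDH1, the E-cadherin that holds luminal cells together, stood at 913 ± 98.0, 912 ± 201 and 757 ± 42.9 CPM and did not pass.

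NTN4 (Entrez 59277, chromosome 12) encodes netrin-4, a secreted protein of basement membranes related to laminins and to the axon guidance netrins. Its counts were 1 and 1 with the empty vector, 50 and 40 with 18 kDa FGF2, and 41 and 14 with 22.5 kDa FGF2. The levels were 0.183 ± 0.00624, 7.35 ± 0.457 and 4.53 ± 2.44 CPM. NTN4 was 40.3-fold higher with 18 kDa (interval 10.8 to 338) and 26.0-fold higher with 22.5 kDa (6.87 to 220). The isoform lines differed by -0.67 on the log2 scale (SE 0.44), and by -1.41 without the first 22.5 kDa library, which held most of the NTN4 counts of its group. The lower 22.5 kDa library, at 2.81 CPM, still lay far above both empty vector libraries.

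Of the other netrins and netrin receptors, 6 of 13 could be tested. In the 18 kDa line 1 rose and none fell, and with 22.5 kDa 2 rose and 2 fell. DSCAM, an immunoglobulin-family receptor that takes part in netrin signalling, had 3 and 4 counts with the empty vector, 236 and 197 with 18 kDa, and 228 and 215 with 22.5 kDa. Its log2 fold changes were 5.74 (SE 0.54, edgeR adjusted p = 9.4e-10) and 5.88 (SE 0.54, adjusted p = 7.1e-10). UNC5B, a repulsive netrin receptor, had 26 and 30, 27 and 26, and 84 and 101 counts. It rose with 22.5 kDa FGF2 against the empty vector (1.68 on the log2 scale, SE 0.40, adjusted p = 0.00637) and against the 18 kDa line (1.92, SE 0.40, adjusted p = 0.0101). Without the second 22.5 kDa library these calls were lost (adjusted p = 0.11 and 0.186, the highest over the alternatives), and the first was also lost without the first empty vector library (adjusted p = 0.107). NTN1, the founding netrin, fell by 1.04 with 22.5 kDa (SE 0.27, adjusted p = 0.0137), and the call was lost without the second empty vector library or the first 22.5 kDa library (highest adjusted p 0.269). NTN5, named here after its values were seen, was the other gene that fell (10 and 10 against 1 and 1 counts, 10.6-fold lower, interval 2.57 to 93.2, adjusted p = 0.0367), and the call was lost in 6 of 13 alternatives (highest 0.259), among them each that left out a compared library.

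GRIK4 (Entrez 2900, chromosome 11) encodes a kainate-type glutamate receptor subunit that works together with another kainate subunit. It had no count in either empty vector library, 78 and 47 counts with 18 kDa FGF2, and 17 and 20 with 22.5 kDa FGF2. The levels of 10.1 ± 2.63 and 3.30 ± 0.999 CPM did not overlap. GRIK4 was at least 18.4-fold higher with 18 kDa and at least 6.01-fold higher with 22.5 kDa than with the empty vector. Its log2 fold change between the isoforms was -1.63 (SE 0.45), and -1.04 without the first library of each isoform.

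Of the other glutamate receptor subunits and their NETO partners, 8 of 19 could be tested. In the 18 kDa line none passed (edgeR, 4 at an unadjusted p under 0.05 and 0 with DESeq2), and GRIN1, the shared subunit of NMDA receptors, stood at 12.2 ± 3.73 and 21.5 ± 6.52 CPM. With 22.5 kDa FGF2, 1 rose and 2 fell. GRIK3, a kainate subunit like GRIK4, had 1 and 0, 1 and 0, and 23 and 10 counts, so it was 31.2-fold higher with 22.5 kDa than with the empty vector (interval 5.23 to 1271, adjusted p = 0.00124) and 34.9-fold higher than with 18 kDa (5.85 to 1420, adjusted p = 0.00372). DESeq2 called neither (adjusted p = 0.0818 for the first, the highest over its alternatives). The second was also lost without the second 22.5 kDa library. Only 12 of 14 alternatives gave a value for the first and 11 for the second. GRIK4 was thus counted in both isoform lines, and GRIK3 almost only with 22.5 kDa. The NMDA receptor subunits GRIN2D and GRIN2C fell by 2.33 (SE 0.48, adjusted p = 0.00113) and 1.91 (SE 0.47, adjusted p = 0.00637) on the log2 scale, and the call of GRIN2C was lost without either 22.5 kDa library (highest adjusted p 0.0868).

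CACNA1H (Entrez 8912, chromosome 16) encodes the pore of the T-type calcium channel Cav3.2, which opens near the resting potential. It had 452 and 560 counts with the empty vector, 57 and 47 with 18 kDa FGF2, and 105 and 79 with 22.5 kDa FGF2. The levels were 92.9 ± 17.1, 8.50 ± 0.347 and 15.9 ± 0.141 CPM, with no overlap. The log2 fold change was -3.45 (SE 0.26) with 18 kDa and -2.54 (SE 0.25) with 22.5 kDa. Between the isoforms it was 0.90 (SE 0.28), so that the order of the 2 isoform lines was opposite to that of TENM2 and CDH8.

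Of the other voltage-gated calcium channel genes, 8 of 17 could be tested, and 1 fell with each isoform. That gene was CACNB1, a cytoplasmic beta subunit, at 22.2 ± 2.83, 8.71 ± 1.14 and 9.89 ± 1.89 CPM. It fell by 1.35 with 18 kDa (SE 0.35, edgeR adjusted p = 0.0139) and by 1.17 with 22.5 kDa (SE 0.35, adjusted p = 0.0296). The first call was lost without either empty vector library or the second 18 kDa library (highest adjusted p 0.179), the second without any 1 compared library (highest 0.272). CACNA1I, a T-type pore like CACNA1H, stood at 16.7 ± 2.90, 26.3 ± 3.17 and 22.3 ± 2.54 CPM and did not pass (adjusted p = 0.221 and 0.468).

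PTGER3 (Entrez 5733, chromosome 1) encodes EP3, a receptor for prostaglandin E2 that lowers cyclic AMP and is known for its part in fever. It had 24 and 20 counts with the empty vector, none with 18 kDa FGF2, and 13 and 2 with 22.5 kDa FGF2. The levels were 4.02 ± 0.381, 0 and 1.19 ± 1.12 CPM. PTGER3 was at least 8.15-fold lower with 18 kDa than with the empty vector and at least 2.42-fold higher with 22.5 kDa than with 18 kDa. With 22.5 kDa its log2 fold change from the empty vector was -1.65 (SE 0.60), -3.27 without the first library, which held 13 of the counts, and -0.997 without the second. The lower bound against 18 kDa rests on that first library too, since the second alone, at 0.401 CPM, lies below the 18 kDa floor of 0.494 CPM. PTGER3 overlaps ZRANB2-AS1 in the annotation, and no source used here gives the strand setting of the counting, so reads of the pair could be mixed.

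Of the other prostanoid receptors and enzymes, 9 of 20 could be tested. In the 18 kDa line none rose and 1 fell, and with 22.5 kDa 1 rose and none fell. PTGER4, the EP4 receptor, which raises cyclic AMP, had 19 and 16 counts with the empty vector and 4 and 5 with 18 kDa, a fall of 2.08 on the log2 scale (SE 0.64, edgeR adjusted p = 0.0285). That call was not made in 8 of 14 alternatives (highest adjusted p 0.302), among them DESeq2 and each that left out a compared library. PTGDS, which makes prostaglandin D2, rose from 9.19 ± 2.13 to 36.3 ± 24.7 CPM with 22.5 kDa (log2 fold change 1.97, SE 0.44, adjusted p = 0.011). The second 22.5 kDa library held 268 counts and the first 123, and without the second the call was lost (adjusted p = 0.183, the highest over the alternatives).

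MBP (Entrez 4155, chromosome 18), whose protein packs the layers of the myelin sheath, had 20 and 14 counts with the empty vector, none with 18 kDa FGF2, and 12 and 14 with 22.5 kDa FGF2. The levels were 3.10 ± 0.671, 0 and 2.32 ± 0.689 CPM. MBP was at least 6.28-fold lower with 18 kDa than with the empty vector and at least 4.70-fold higher with 22.5 kDa than with 18 kDa. Between 22.5 kDa and the empty vector the log2 fold change was -0.44 (SE 0.51), and the groups overlapped, which happened in no other of the 24 comparisons of the 8 genes. MBP and PTGER3 were the members with no count in either 18 kDa library.

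Of the other myelin genes, 5 of 18 could be tested, and none rose in any comparison. FA2H, which makes the hydroxylated fatty acids of myelin lipids, had 308 and 333, 196 and 161, and 185 and 199 counts. It fell by 1.01 with 18 kDa (SE 0.25, edgeR adjusted p = 0.0098), a call lost without the second empty vector library (adjusted p = 0.155, the highest over the alternatives). With 22.5 kDa it fell by 0.79 (SE 0.25, adjusted p = 0.0408), and the call was lost in 6 of 14 alternatives (highest adjusted p 0.341), among them DESeq2 and each that left out a compared library. MYRF, the regulator of myelin genes, fell by 1.39 with 22.5 kDa (SE 0.37, adjusted p = 0.0137), a call lost without any 1 compared library (highest 0.126). MBP itself differed from these in having its low level with 18 kDa FGF2 alone.

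GPNMB (Entrez 10457, chromosome 7) encodes a membrane glycoprotein of lysosomes and pigment granules that is also shed from the cell. It had 15 and 13 counts with the empty vector, 4 and 1 with 18 kDa FGF2, and 71 and 37 with 22.5 kDa FGF2. The levels were 2.56 ± 0.172, 0.395 ± 0.310 and 9.13 ± 2.42 CPM. GPNMB was the only 1 of the 8 genes to lie below the empty vector with one isoform and above it with the other in every library. The log2 fold change was -2.59 (SE 0.76) with 18 kDa, 1.83 (SE 0.46) with 22.5 kDa and 4.42 (SE 0.72) between them. Leaving out either 18 kDa library moved the first to -3.68 or -1.98, and the last to 5.54 or 3.80.

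Of the MITF family, lysosomal genes and partners of GPNMB, 15 of 16 could be tested. In the 18 kDa line 1 rose and 2 fell, and with 22.5 kDa none rose and 1 fell. PMEL, the pigment granule protein nearest in sequence to GPNMB, rose by 0.95 with 18 kDa (SE 0.25, edgeR adjusted p = 0.0171), while GPNMB was lower there. TFEB, a regulator of lysosomal genes, fell by 1.37 (SE 0.41, adjusted p = 0.0369). CTSK, a lysosomal protease, fell by 1.72 (SE 0.57, adjusted p = 0.0485). Both calls were lost with DESeq2 and without any 1 compared library, and that of PMEL without either empty vector library or the first 18 kDa library (highest adjusted p 0.178, 0.177 and 0.361 for PMEL, TFEB and CTSK). With 22.5 kDa, SDC4, a heparan sulfate proteoglycan that can bind GPNMB, fell by 0.83 (SE 0.23, adjusted p = 0.0164), a call lost without any 1 compared library (highest 0.165). MITF, counted at 1.26 ± 0.993, 0.559 ± 0.294 and 1.65 ± 0.911 CPM, did not pass.

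Over all 8 lists, 65 of 136 genes other than the 8 themselves could be tested, and 21 had no count. With 18 kDa FGF2, 4 rose and 8 fell (18.5% called beside 8.88% of all tested genes, median log2 fold change -0.22 beside -0.05), with 22.5 kDa 5 rose and 13 fell (27.7% beside 10.9%, median -0.15 beside 0.01), and between the isoforms 2 rose and none fell (3.08% beside 1.58%, median -0.13 beside 0.02). The 2 were GRIK3 and UNC5B. Some genes with few counts in one group, such as TENM3, ADGRL2, CDH12, GRIK3 and DSCAM, passed the count filter only through groups where they are high. For these genes the filter favoured a difference, and their calls are not independent of the filter. In the 6 lists without a call between the isoforms, edgeR found 5 of 51 genes at an unadjusted p under 0.05 and DESeq2 called 1. Leaving out 1 library at a time gave 5 (without the second empty vector library) to 12 calls with 18 kDa, 8 (without the first 22.5 kDa library) to 22 with 22.5 kDa, and 0 (without the second 22.5 kDa library) to 4 (without the second 18 kDa library) between the isoforms. The lists were written with earlier results of these data known, so these shares are not independent evidence about neural genes.

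Set side by side, the 8 genes took different combinations of the 2 isoforms. GRIK4 and NTN4 were higher with both, CACNA1H, TENM2 and CDH8 lower with both, PTGER3 lower with both and at 0 with 18 kDa, MBP low with 18 kDa alone, and GPNMB on opposite sides. GRIK4 and NTN4 were the pair of members with the most alike profiles, at a root mean square difference of 0.65 in centred log2 CPM over 6 libraries, where the median tested gene lay 2.10 from GRIK4. CACNA1H and PTGER3 followed at 0.67. GRIK4 alone had another member as its nearest tested gene; PTGER3 ranked 154 by closeness to CACNA1H. By the same measure the nearest tested genes were KRT10 after NTN4 for GRIK4 (0.66), CSTF2T for TENM2 (0.36), PGBD5 for CDH8 (0.30), GLYATL1 for NTN4 (0.31), LOC100131289 for MBP (0.14), WFDC2 for CACNA1H (0.18), CSMD3 for PTGER3 (0.33) and BRINP3 for GPNMB (0.45).

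**Figure D2:**
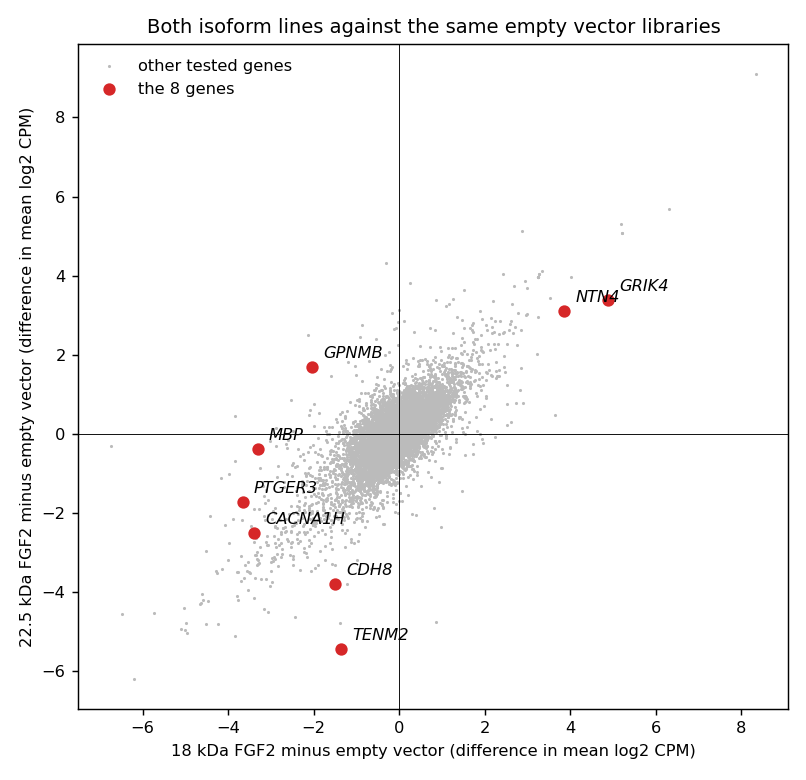
Difference in mean log2 CPM (prior count 2) from the empty vector with 18 kDa FGF2 (horizontal axis) and with 22.5 kDa FGF2 (vertical axis): grey points are the other tested genes and red points the 8 genes. Both axes use the same empty vector libraries, which by itself spreads points along the diagonal, and GPNMB alone among the 8 lies above 0 on the vertical axis and below 0 on the horizontal.

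The 3 nearest tested genes on each side of the 8 genes made 48 neighbours in the RefSeq gene order. With 18 kDa FGF2 none rose and 4 fell (8.33%), with 22.5 kDa 1 rose and 3 fell (8.33%), and between the isoforms 1 rose (2.08%), close to the shares of all tested genes given above. Without the first empty vector library 1 neighbour was called with each isoform, and without the second 18 kDa library 7 with 18 kDa and 6 between the isoforms. None of the neighbours of GRIK4, TENM2 or CDH8 passed in any comparison (edgeR, with 0 for GRIK4, 1 or 2 for TENM2 and 1 for CDH8 at an unadjusted p under 0.05 in each comparison, and 0 with DESeq2). TPSG1, a tryptase gene that overlaps CACNA1H in the annotation, had 23 and 42 counts with the empty vector, 1 and 2 with 18 kDa and 4 and 1 with 22.5 kDa. TPSG1 also passed the count filter through the empty vector libraries alone, so the filter favoured a difference and its calls are not independent of the filter. It was 24.2-fold lower with 18 kDa (interval 7.93 to 120, edgeR adjusted p = 7.9e-05) and fell by 3.73 on the log2 scale with 22.5 kDa (SE 0.76, adjusted p = 0.000227). ZRANB2-AS1, the antisense gene over PTGER3, had 21 and 20, 6 and 6, and 20 and 7 counts, a fall of 1.91 with 18 kDa (SE 0.58, adjusted p = 0.0285) that was lost in 7 of 14 alternatives (highest 0.234). Since these genes overlap CACNA1H and PTGER3, how far they share reads was not tested.

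Beside MBP, the noncoding gene LINC00908 had 11 and 10 counts with the empty vector, none with 18 kDa and 0 and 1 with 22.5 kDa. LINC00908 passed the count filter through the empty vector libraries alone, so the filter favoured a difference and its calls are not independent of the filter. Its level with 18 kDa was at least 3.89-fold lower (edgeR adjusted p = 0.00153, and 0.0573 with DESeq2, the highest over the alternatives). With 22.5 kDa it was 22.2-fold lower (3.57 to 917, adjusted p = 0.0058), unlike MBP, which kept 12 and 14 counts there. DESeq2 did not call the fall with 22.5 kDa, and only 11 of 14 alternatives gave a value. That call was lost without either 22.5 kDa library and without the first library of both isoforms. IGF2BP3, a neighbour of GPNMB that encodes an RNA-binding protein, fell by 1.86 with 18 kDa (SE 0.47, adjusted p = 0.013), a call lost with upper quartile factors and without the first empty vector or the first 18 kDa library (highest 0.104). ELK3, a neighbour of NTN4 that encodes an ETS factor, rose by 1.79 with 22.5 kDa (SE 0.48, adjusted p = 0.0124), a call lost with DESeq2 and without any 1 compared library (highest 0.156). ZNF516 near MBP (22.5 kDa against the empty vector) and LTA4H near NTN4 (between the isoforms) passed with adjusted p of 0.0374 and 0.0333, and those calls were lost in 7 and 5 of 14 alternatives (highest 0.187 and 0.304).

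Marker lists of cell types are set beside these levels as a description. The 14 luminal markers summed to 16993 to 21802 CPM with the empty vector, 19798 to 23611 with 18 kDa FGF2 and 13066 to 16216 with 22.5 kDa. Of the 12 that could be tested, none rose and 3 fell with each isoform: ESR1, PGR and XBP1, the estrogen receptor, the progesterone receptor and a factor of luminal cells. ESR1 stood at 14.0 ± 1.38, 1.20 ± 1.04 and 1.85 ± 0.628 CPM, a fall of 3.57 on the log2 scale with 18 kDa (SE 0.55, edgeR adjusted p = 4.6e-05) and of 2.88 with 22.5 kDa (SE 0.51, adjusted p = 0.000245). The second call was lost without the second 22.5 kDa library (adjusted p = 0.0523, the highest over the alternatives). PGR stood at 215 ± 18.6, 22.9 ± 12.4 and 23.6 ± 0.511 CPM (adjusted p = 9.8e-06 and 8.8e-06), and XBP1 at 919 ± 32.3, 277 ± 58.1 and 376 ± 64.0 CPM (adjusted p = 1.7e-05 and 0.00042). Since T47D-YA carries the progesterone receptor as its A form, PGR may not read the luminal state here, which was not tested. CACNA1H, TENM2 and CDH8 were lower with both isoforms, as these 3 markers were. PTGER3 was lower with both as well, though its 22.5 kDa libraries differed (13 and 2 counts) and it did not pass there. The part of the luminal markers in these levels was not tested.

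Of 14 neuron markers 5 had no count in any library (STMN2, NEFM, ELAVL4, INA and DCX), and the list summed to 111 to 126, 83.4 to 88.6 and 56.3 to 62.8 CPM. Of the 5 that could be tested, 1 rose with 18 kDa FGF2, and 2 rose and 1 fell with 22.5 kDa. NEFL, a neurofilament subunit, had 17 and 14 counts with 22.5 kDa and none in the other 4 libraries. NEFL passed the count filter through the 22.5 kDa libraries alone, so the filter favoured a difference and its calls are not independent of the filter. It was at least 4.91-fold higher than with the empty vector (edgeR adjusted p = 0.000371) and at least 5.47-fold higher than with 18 kDa (adjusted p = 0.00149), the latter lost without the second 22.5 kDa library (adjusted p = 0.135, the highest over the alternatives). MAP2, a microtubule protein of dendrites, had 1 and 1, 10 and 17, and 20 and 20 counts (adjusted p = 0.00565 with 18 kDa and 0.000565 with 22.5 kDa). It passed the count filter through the isoform libraries alone. The MAP2 call with 18 kDa was lost with DESeq2, without the first empty vector library and without the second 18 kDa library (highest adjusted p 0.0812). TUBB3, a neuronal tubulin that many cancer lines also express, made up most of the sum at 102 ± 10.5, 74.9 ± 6.76 and 46.9 ± 5.63 CPM, and fell by 1.11 on the log2 scale with 22.5 kDa (SE 0.22, adjusted p = 0.00107). The neuron markers thus moved in both directions, and their part in the levels of the 8 genes was not tested.

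Among oligodendrocyte and Schwann cell markers other than MBP, MOG, OLIG2 and S100B had no count in any library, while OLIG1, for one, was counted in all 6. The list summed to 22.0 to 25.7, 12.6 to 16.9 and 7.42 to 8.40 CPM, most of it MYRF. The 2 that could be tested, MYRF and NGFR, fell with 22.5 kDa FGF2, where MBP overlapped the empty vector. NGFR, the p75 neurotrophin receptor, fell by 2.62 (SE 0.62, edgeR adjusted p = 0.00291), a call lost without the second empty vector library or either 22.5 kDa library (highest adjusted p 0.169). The 7 melanocyte markers, which include PMEL, summed to 27.0 to 29.5, 45.7 to 58.8 and 31.7 to 32.2 CPM. Their highest sums came with 18 kDa FGF2, where GPNMB was lowest. Only 2 of these markers could be tested, and the 1 called with 18 kDa was PMEL.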

How the data were processed

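RNA sequencing of 6 libraries of T47D-YA cells, 2 per group, was analysed from the whole-number read counts per Entrez gene that the authors deposited, with no normalization. The submitters' processing notes name hg19 and edgeR. Aligner, counter and strand setting: not given in the sources used here. Groups were taken from the labels, which leave unsaid whether replicate libraries are separate cultures, so that the p-values reflect the spread of these libraries alone, and it may be technical. Replicates differed by more than counting noise (chi-square per degree of freedom 6.20, 14.3 and 14.3 for the empty vector, 18 kDa and 22.5 kDa).

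All 6 libraries entered 1 edgeR 4.0.16 quasi-likelihood model in R 4.3.3 (TMM, filterByExpr on the groups, trended dispersions with a robust fit, 3 residual degrees of freedom, common biological coefficient of variation 0.199). The filter kept 13124 genes. Tests were two-sided with Benjamini-Hochberg adjustment over all 13124 genes and a threshold of 0.05, and every adjusted p is from this test unless DESeq2 1.42.0 is named. The model was tested on simulated data. Symbols, neighbours and chromosomes came from RefSeq by Entrez ID (23308 IDs matched). Genes were given as alike by the root mean square difference of centred log2 CPM with a prior count of 2.

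The members and all lists were chosen with earlier results of these data known. Genes named besides the members were, per list and comparison, up to 3 called genes by smallest p, or the 2 with the highest mean CPM where none was called, the called neighbours, called marker genes (picked after their values were seen), and the 2 genes most alike to each member; not all are printed, and 1 marker gene is not reported here. Alternatives were other normalizations (RLE, upper quartile), other count filters, DESeq2, a replicate block, leaving out each library, and leaving out the first library of both isoforms. A block with the 18 kDa numbers crossed was added after seeing the data.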

Additional observations from a re-analysis of the deposited data

Results flagged for a closer look

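GPNMB stood out because every 18 kDa FGF2 library lay below both empty vector libraries and every 22.5 kDa library above them. Its log2 fold change between the isoforms was 4.42, given as a description. GPNMB was in the fit across all genes, but since it was chosen by these contrasts, the difference was not tested on values independent of that choice.

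GRIK3 and UNC5B were named because their response to the 2 isoforms differed by a test of the difference itself. GRIK3 was higher with 22.5 kDa than with 18 kDa FGF2 by a log2 fold change of 4.77 (edgeR adjusted p = 0.00372), which rests on 1 count in the 18 kDa group. GRIK3 passed the count filter through the 22.5 kDa libraries alone, so the filter favoured a difference and its call is not independent of the filter. UNC5B was higher with 22.5 kDa by 1.92 (adjusted p = 0.0101). Both differences missed the threshold without the second 22.5 kDa library, and DESeq2 did not call that of GRIK3. With 2 libraries per group no library could be examined for standing apart from the rest of its group.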

How the results depend on the processing

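No log2 fold change of the 8 genes changed sign in any alternative: of 336 values, 283 moved by less than the spread between replicates and 53 by more. Of 2114 values of the other named genes, 117 lost the threshold, 59 gained it and 0 reversed. The numbers of libraries do not pair the samples (correlations of same-numbered deviations -0.27, 0.39 and -0.41), and the replicate block moved the count between the isoforms from 207 to 337. The crossed block, added after seeing the data, gave 2434 genes called with 18 kDa FGF2 in place of 1165, 2910 with 22.5 kDa in place of 1431, and 1208 between the isoforms. For related genes it gave 24, 30 and 6 in place of 12, 18 and 2, and for neighbours 10, 9 and 5 in place of 4, 4 and 1. Without the first library of both isoforms the counts of all genes were 1915, 2535 and 354, and 0 neighbours were called between the isoforms. Upper quartile factors gave 109 genes between the isoforms, and 2 neighbours with 18 kDa and 0 between the isoforms. With no filter on low counts 445 genes and 2 neighbours were called between the isoforms. DESeq2 called 2 and 1 neighbours with 18 kDa and 22.5 kDa. Leaving out 1 library at a time gave 617 to 1440, 630 to 1964 and 37 to 733 genes, 5 to 12, 8 to 22 and 0 to 4 related genes, and 1 to 7, 1 to 5 and 0 to 6 neighbours in the 3 comparisons. Fewer samples enter those fits; for the other settings the cause was not tested. A lone library left in a group is assumed to vary like the other groups. Groups at 0 or a few counts set the limit of precision for GRIK4, TENM2, NTN4, MBP and PTGER3.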
